A study of Rattus norvegicus with 12 samples.

Results

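The transforming growth factor beta (TGF-beta) superfamily includes the best known brakes on hepatocyte growth, and 10 of its genes were read across the deposited RNA sequencing of rat liver after partial hepatectomy (PH). They were chosen by name: the ligand TGFB1, the activin subunits INHBA, INHBC and INHBE, the activin antagonist FST, the receptors TGFBR1 and TGFBR2, the inhibitory SMADs SMAD6 and SMAD7, and the target ID1. All 10 were found among the 14692 genes of the table. The unit is RPKM, reads per kilobase of transcript scaled to the total of a library. Averaged over all columns 9 of the 10 reached 1 RPKM, and FST did not.

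The livers came from male Sprague Dawley rats of 4 to 5 months that carried a duodenal catheter with a saline infusion in every group. Control rats had a sham biliary fistula 24 h before PH, and the other 2 groups had a biliary fistula, which drains bile out of the body. One of these 2 groups was also given the bile acid sodium taurocholate through the catheter, at 0.5 mg per g of body weight a day, starting 12 h before PH. Livers were taken at 0, 4, 12 and 24 h after PH, which gave 12 columns. For each of them the authors sequenced 1 rat by itself and a pool of 3 more, and deposited the mean of the 2 runs. No spread between rats is therefore known, and no difference at a single time has a replicate check or a test. The number of reads behind a column is unknown.

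The names of the fistula groups conflict. The sample titles use BF and BA, the study uses BF for the fistula alone, and the sample descriptions give the infusion to the samples titled BF and none to those titled BA. The columns are called BF and BA here after their titles only, and which of them received bile acid is left unassigned. CYP7A1 is the rate-limiting enzyme of bile acid synthesis, and bile acids that return to the liver repress it. It was at 60, 4.59, 8.53 and 57.3 RPKM in Control at 0, 4, 12 and 24 h, at 387, 13.8, 136 and 334 RPKM in BF, and at 54.9, 1.81, 3.17 and 68.8 RPKM in BA. BF was thus the highest at every time and BA the nearer of both to Control, which runs with the titles as the study uses them and against the descriptions. By PCR the study reports elevated Cyp7a before PH in its rats with the fistula alone, and a reversal by the infusion. The level of 1 gene was not used to assign the groups.

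Several columns stood apart. Albumin (ALB) took 30.9% of the summed RPKM in BA at 4 h and between 5.60% and 13.4% elsewhere, so that the total of that column was 982826 against 727435 to 785092. Without ALB the totals ran from 645657 to 703408. In BF at 12 h the 9 pancreatic acinar markers summed to 138.8 RPKM, against at most 23.2 RPKM in any other column, and 8 of the 9 were highest there. Of the 8 hepatocyte markers 7 were found, and their sum of 81518 to 347624 RPKM was far above that of the 9 stellate cell and fibroblast markers found (44.4 to 106.5 RPKM) and the 10 Kupffer cell and macrophage markers found (319 to 471 RPKM).

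TGF-beta, activins and bone morphogenetic proteins (BMPs) bind pairs of type I and type II receptor kinases, which phosphorylate SMAD proteins that enter the nucleus and switch target genes on or off. SMAD6 and SMAD7 block this relay and are themselves induced by it. In the liver TGF-beta and activin A restrain hepatocyte division, follistatin neutralizes activins, and BMP signals drive the iron hormone hepcidin and the ID genes. Activin subunits C and E are made mainly by hepatocytes, while much of the TGF-beta of the liver comes from nonparenchymal cells. In whole liver, fewer cells of a type and less RNA per cell cannot be told apart.

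Sequences from RefSeq on the GRCr8 assembly cover the region from 250 bases before to 50 bases after the transcription start of 8 of the 10 genes. Those shown belong to ID1 and INHBA, whose ratios to 0 h kept 1 sign each, in opposite directions, at all times after PH, and to INHBC and INHBE, close neighbours whose levels parted in 1 column. They lie at chr3:161671314-161671613 (plus strand), chr17:53804459-53804758 (minus strand), chr7:65082870-65083169 (minus strand) and chr7:65064470-65064769 (minus strand), and the windows of INHBC and INHBE are 18101 bases apart. Capitals mark matches on either strand to the SMAD binding core CAGAC, to the core promoter motif TATAAA, and to TGATGCAA, an element that C/EBP and ATF factors bind.
ID1: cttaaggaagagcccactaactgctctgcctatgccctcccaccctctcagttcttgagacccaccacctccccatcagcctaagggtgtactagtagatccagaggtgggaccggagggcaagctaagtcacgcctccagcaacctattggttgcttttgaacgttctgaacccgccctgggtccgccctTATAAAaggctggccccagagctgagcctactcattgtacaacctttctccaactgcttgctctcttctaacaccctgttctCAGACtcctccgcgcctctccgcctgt
INHBA: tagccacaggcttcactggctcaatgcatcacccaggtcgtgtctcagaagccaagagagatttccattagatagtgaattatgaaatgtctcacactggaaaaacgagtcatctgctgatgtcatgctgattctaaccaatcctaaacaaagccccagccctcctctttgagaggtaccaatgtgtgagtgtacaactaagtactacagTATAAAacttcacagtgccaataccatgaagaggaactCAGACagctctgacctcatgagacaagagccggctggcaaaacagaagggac
INHBC: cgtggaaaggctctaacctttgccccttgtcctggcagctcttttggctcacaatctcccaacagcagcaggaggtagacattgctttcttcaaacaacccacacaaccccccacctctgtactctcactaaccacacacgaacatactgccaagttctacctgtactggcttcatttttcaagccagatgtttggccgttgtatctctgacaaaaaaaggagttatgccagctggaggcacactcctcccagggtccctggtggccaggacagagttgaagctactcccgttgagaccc
INHBE: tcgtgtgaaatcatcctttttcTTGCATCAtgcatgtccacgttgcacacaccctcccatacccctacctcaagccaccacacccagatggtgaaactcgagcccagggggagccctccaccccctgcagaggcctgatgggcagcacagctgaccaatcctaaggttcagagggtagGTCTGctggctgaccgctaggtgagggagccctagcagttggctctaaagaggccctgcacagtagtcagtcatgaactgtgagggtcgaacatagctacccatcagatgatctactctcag

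The ID1 window held TATAAA at bases 192 to 197 and CAGAC at bases 274 to 278. In the INHBA window TATAAA lay at bases 211 to 216 and CAGAC at bases 249 to 253. INHBE carried CAGAC at bases 179 to 183 and TGATGCAA at bases 23 to 30, both on the other strand, and INHBC held no match. Of 33469 rat promoter windows of the same length, 50.1% held CAGAC, 14.2% TATAAA and 0.795% TGATGCAA. GGCGCC, a GC-rich SMAD element, was found in 11% of all windows and in those of TGFBR1 and SMAD7. TGACGTCA (1.83% of windows) and CACGTG (6.42%) were found in none of the 8. None of the marked matches overlapped another, and a match describes letters, not a bound site.

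Levels differed widely between the genes. On the RPKM scale, which is per length, INHBC and INHBE were the most abundant, with means over the 12 columns of 94.3 and 83.3 RPKM, followed by TGFBR2 at 46.1 RPKM. Next came TGFBR1 at 10.3 RPKM and ID1 at 8.20 RPKM. SMAD7 (3.24 RPKM), INHBA (3.04 RPKM), TGFB1 (2.71 RPKM) and SMAD6 (2.41 RPKM) lay close together, and FST was last at 0.33 RPKM. With no spread between rats, the order among these close neighbours is not established. Activin subunits C and E were thus at a higher level than TGFB1 in every column.

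The genes also differed in how far they moved. The range of log2(RPKM + 1) over the 12 columns was 3.01 for INHBA, larger than in 94.8% of the 8459 genes that averaged 1 RPKM or more, called expressed genes below. It was 2.45 for INHBE (91.0% of genes) and 1.97 for ID1 (84.7%). TGFB1 had a range of 0.41, larger than in 1.32% of genes, and TGFBR1 (0.71, 17.4%) and SMAD6 (0.74, 19.6%) also lay low. TGFBR2 (0.89, 33.6%), SMAD7 (0.96, 39.2%) and INHBC (1.07, 48.4%) were below the median range of 1.10. TGFB1 and its receptor TGFBR1 thus had the narrowest ranges of the 10, and INHBA, INHBE and ID1 the widest.

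Ratios between columns are given as log2 of (RPKM + 1), and a ratio of 2-fold or more, that is a log2 ratio of 1 or more in size, is called a change. "Rose" and "fell" are kept for such changes.

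**Figure D1:**
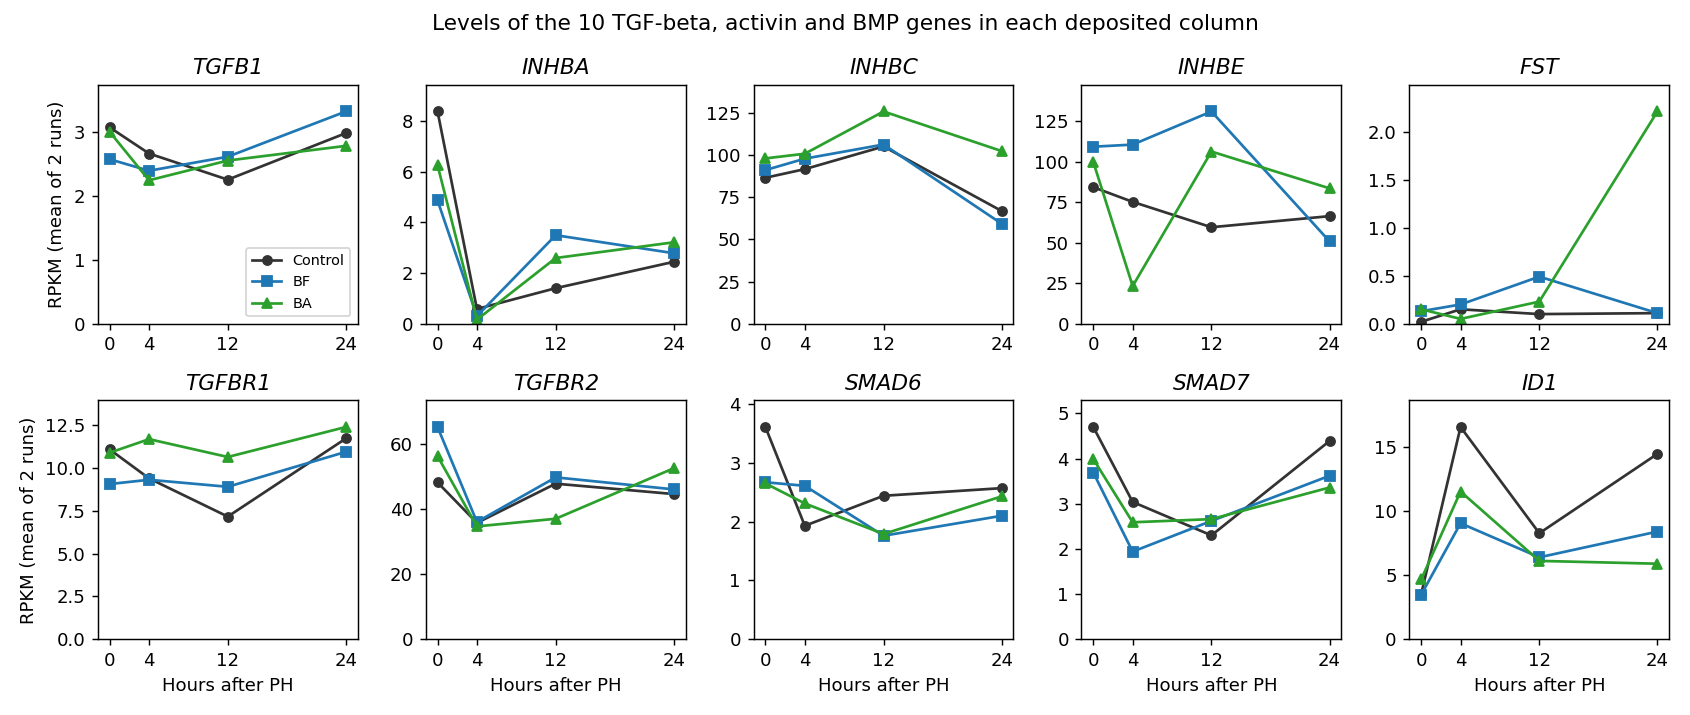
RPKM of each gene (y axes, each from 0) against hours after PH (x axes) in Control (black circles), BF (blue squares) and BA (green triangles), 1 point per deposited column and no error bars. INHBA was lowest at 4 h in all 3 groups, ID1 was highest at 4 h in all 3, INHBE was at 23.2 RPKM in BA at 4 h, and FST was above 1 RPKM only in BA at 24 h.

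TGFB1, the main growth-inhibitory ligand of the family, stayed within a narrow band. It was at 3.08, 2.67, 2.26 and 2.99 RPKM in Control at 0, 4, 12 and 24 h, at 2.58, 2.40, 2.62 and 3.33 RPKM in BF, and at 3.01, 2.25, 2.56 and 2.79 RPKM in BA. The 3 groups overlapped, and the highest value was 1.48 times the lowest. No log2 ratio of TGFB1 to 0 h went beyond -0.32 (Control at 12 h) or 0.27 (BF at 24 h). The markers of Kupffer cells and macrophages had their lowest sum at 12 h in each group, at 319 RPKM in Control, 329 RPKM in BF and 319 RPKM in BA, while TGFB1 was lowest at 12 h in Control and at 4 h in BF and BA.

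INHBA, the subunit of activin A, fell at 4 h in all 3 groups. Control dropped from 8.37 to 0.58 RPKM, BF from 4.86 to 0.30 RPKM and BA from 6.25 to 0.16 RPKM. All 3 values at 4 h were below every other value of the gene. The log2 ratios of (RPKM + 1) were -2.57, -2.17 and -2.64, and with a pseudocount of 0.1 RPKM they were -3.64, -3.63 and -4.61.

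INHBA then came back in part. Control was the lowest at 12 and 24 h, but by little at 24 h, and it had the highest 0 h level, which enters its ratios. With no spread between rats, an order of the groups is not established. The 12 h levels were 1.40 RPKM (Control), 3.49 RPKM (BF) and 2.59 RPKM (BA). The 24 h levels were 2.44, 2.78 and 3.21 RPKM, so that every column after PH stayed below every column at 0 h. Its log2 ratios to 0 h were -1.97 (Control), -0.38 (BF) and -1.01 (BA) at 12 h, and -1.45, -0.63 and -0.78 at 24 h. The BA ratio at 12 h lay at the 2-fold line and was -0.90 and -0.84 after rescaling on the median gene and on the total without the 10 most abundant genes. INHBA was above TGFB1 in RPKM in all 3 columns at 0 h, by 1.88 to 2.72 times, and at 0.07 to 0.22 times TGFB1 at 4 h.

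INHBC, the activin C subunit, was high in every column, and its range over the columns was near that of the median expressed gene. It was at 86.5, 91.6, 105 and 66.8 RPKM in Control over the 4 times, at 91.1, 97.9, 106 and 59.3 RPKM in BF, and at 98.0, 101, 126 and 102 RPKM in BA. Each group was highest at 12 h, and Control and BF were lowest at 24 h. None of its ratios to 0 h reached 2-fold, the furthest being -0.61 in BF at 24 h, which was -1.02 after rescaling on the median gene. The median of all expressed genes moved by 0.28 in that comparison.

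INHBE, the activin E subunit, parted furthest from its neighbour in a single column. In Control it was at 84.2, 75.2, 59.5 and 66.4 RPKM over the 4 times. BF had 109, 110.5, 131 and 50.8 RPKM. BA had 99.8, 23.2, 106 and 83.5 RPKM, so that its 4 h column was below all others, the next lowest being BF at 24 h. The log2 ratio to 0 h in BA at 4 h was -2.06, against -0.16 in Control and 0.02 in BF.

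That low INHBE value lay in the column in which albumin took 30.9% of the RPKM. After each column was rescaled to the same total without ALB or by the other alternatives the ratio ran from -2.10 to -1.80, and INHBC in the same column was at 101 RPKM, near its own 98.0 RPKM at 0 h. The ratio of INHBC to INHBE was 4.34 in that column and between 0.811 and 1.77 in the other 11. Whether the INHBE value has to do with what set the column apart was not tested. INHBE also fell in BF at 24 h, by a log2 ratio of -1.09, where Control was at -0.34 and BA at -0.25. Between BF and Control at 12 h INHBE and INHBC parted as well, with log2 ratios of 1.12 and 0.016.

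**Figure D2:**
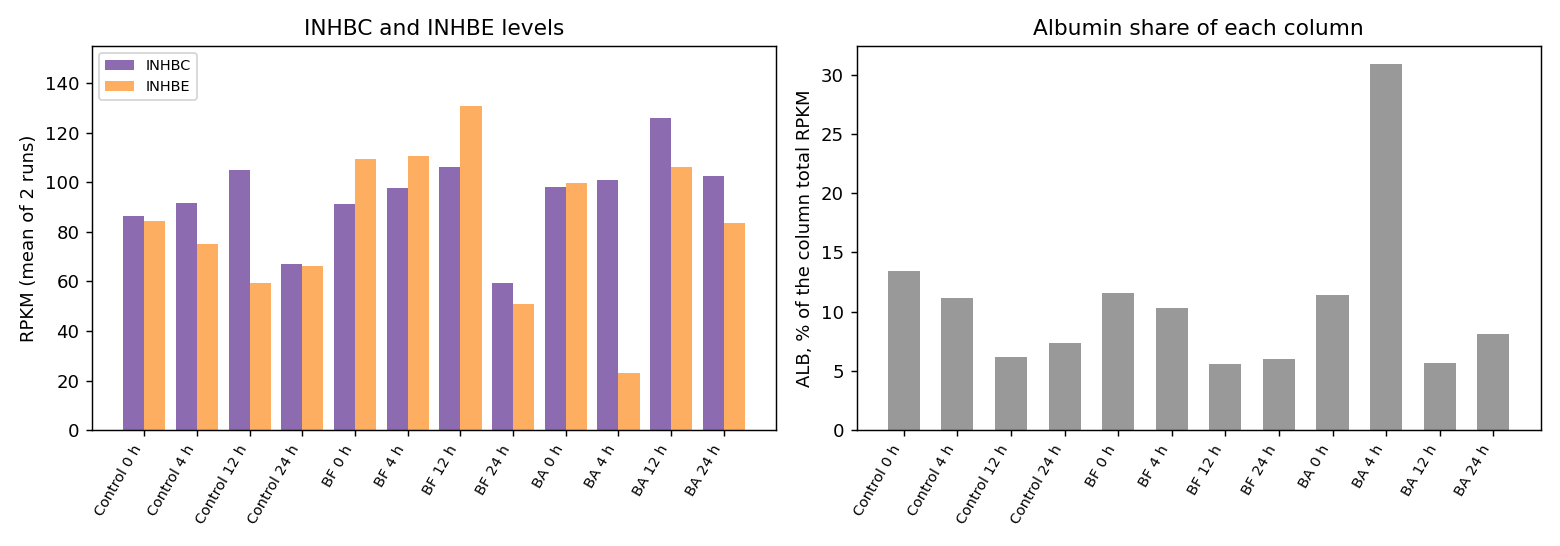
Left, RPKM of INHBC (purple bars) and INHBE (orange bars) in each of the 12 columns. Right, ALB as a percent of the summed RPKM of the same columns. Bars are the authors' means of 2 runs and have no error. In BA at 4 h INHBE was at 23.2 RPKM beside 101 RPKM of INHBC, and ALB took 30.9% of the column.

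FST encodes follistatin, which binds activins and blocks them. It was under 1 RPKM in 11 of the 12 columns, where it reached at most 0.49 RPKM (BF at 12 h), and at 2.21 RPKM in BA at 24 h. Control had 0.02, 0.15, 0.10 and 0.11 RPKM, BF 0.13, 0.20, 0.49 and 0.11 RPKM, and BA 0.15, 0.05, 0.23 and 2.21 RPKM over the 4 times. The log2 ratio of BA at 24 h to 0 h was 1.48 and ran from 1.14 to 3.21 over the alternatives, since the pseudocount weighs heavily at such levels. With no depth and no replicate for this column, 1 value carries the whole change. FST was at 0.69 times the RPKM of INHBA there and at most 0.67 times in any other column, the latter in BF at 4 h, where both were at 0.30 RPKM or less.

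TGFBR2, the type II receptor that binds TGF-beta first, was at its lowest at 4 h in all 3 groups. It was at 48.2, 35.7, 47.8 and 44.6 RPKM in Control, at 65.2, 36.0, 49.7 and 46.0 RPKM in BF, and at 56.2, 34.7, 37.0 and 52.5 RPKM in BA. The 4 h values were close to each other, and the groups differed more at 0 h. The log2 ratios at 4 h were -0.42, -0.84 and -0.68, none of them 2-fold. Their background, the median of all expressed genes, was -0.19, -0.072 and -0.32.

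TGFBR1, the type I receptor kinase, moved less. It was at 11.1, 9.39, 7.16 and 11.7 RPKM in Control, at 9.06, 9.31, 8.90 and 10.9 RPKM in BF, and at 10.9, 11.7, 10.6 and 12.4 RPKM in BA. Its lowest column was Control at 12 h, with a log2 ratio to 0 h of -0.57, where both fistula columns were at -0.02 and -0.03. TGFBR2 was above TGFBR1 in every column, by 2.97 to 7.20 times.

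SMAD7 and SMAD6, the inhibitory SMADs, were low and mostly lower after PH. SMAD7, which blocks TGF-beta and BMP receptors, was at 4.70, 3.04, 2.30 and 4.39 RPKM in Control, at 3.69, 1.94, 2.62 and 3.62 RPKM in BF, and at 3.99, 2.59, 2.66 and 3.36 RPKM in BA. Each group was lower at 4 h than at 0 h and near its 0 h level again at 24 h, with log2 ratios of -0.50, -0.67 and -0.48 at 4 h and of -0.08, -0.02 and -0.19 at 24 h. The furthest ratio, -0.79 in Control at 12 h, reached 2-fold with a smaller pseudocount of 0.1 RPKM (-1) and with values floored at 1 RPKM (-1.03). All 9 of its ratios to 0 h were negative, under each alternative too.

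SMAD6, which acts mostly on BMP receptors, was at 3.61, 1.93, 2.44 and 2.57 RPKM in Control, at 2.67, 2.61, 1.76 and 2.10 RPKM in BF, and at 2.65, 2.31, 1.79 and 2.43 RPKM in BA. Its highest column was Control at 0 h. Its 9 ratios to 0 h ran from -0.65 to -0.02 and none was 2-fold, and those of BF and BA at 4 h turned positive under a rescaling of the columns, to at most 0.07 and 0.05.

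ID1, a target of BMP signals that holds back differentiation factors of the helix-loop-helix family, was above its 0 h level in all 9 columns after PH. In Control it was at 3.53, 16.6, 8.28 and 14.5 RPKM over the 4 times. BF had 3.48, 9.06, 6.40 and 8.41 RPKM, and BA 4.67, 11.5, 6.12 and 5.90 RPKM. At every time after PH the Control column was the highest, and every column after PH exceeded every column at 0 h.

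ID1 rose at 4 h in all 3 groups, by log2 ratios of 1.96 in Control, 1.17 in BF and 1.15 in BA. At 12 h the ratios were 1.03, 0.72 and 0.33, and the Control one was 0.96 after rescaling without ALB. At 24 h they were 1.77, 1.07 and 0.28. The BF ratio at 24 h was 0.72 after rescaling on the median gene, so that a 2-fold rise at 24 h held under every alternative in Control only. SMAD6 and SMAD7, which BMP signals also induce, did not share this rise, and ID1 went from 0.751 to 1.17 times the RPKM of SMAD7 at 0 h to between 4.46 and 5.45 times at 4 h.

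The changes were few, and were read against those of all expressed genes. At 4 h, 2 of the 10 genes had changed in Control (INHBA and ID1), where 9.2% of the 8459 genes had. The same 2 had changed in BF, against 12% of all genes, and 3 in BA (INHBE besides), against 17.8%. At 12 h it was 2 genes in Control (13.9% of all genes), 0 in BF (7.61%) and 1, INHBA, in BA (7.06%). At 24 h it was 2 in Control (11.3%), 2 in BF (ID1 and INHBE, 11.1%) and 1, FST, in BA (5.24%). A list of 10 genes moves in steps of 10 percent, and none of these counts is read as particular to it.

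The middle of the list hardly moved. The median log2 ratio of the 10 genes at 4 h was -0.19 in Control, -0.0035 in BF and -0.22 in BA, beside -0.19, -0.072 and -0.32 for all expressed genes. At 12 h it was -0.37, -0.0035 and -0.10, beside -0.16, -0.054 and -0.13. At 24 h it was -0.095, -0.13 and -0.086, while the median of all expressed genes was 0.21, 0.28 and 0.15. TGFB1, TGFBR1, TGFBR2, INHBC, SMAD6 and SMAD7, 6 of the 10 genes, changed in none of the 21 comparisons made.

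**Figure D3:**
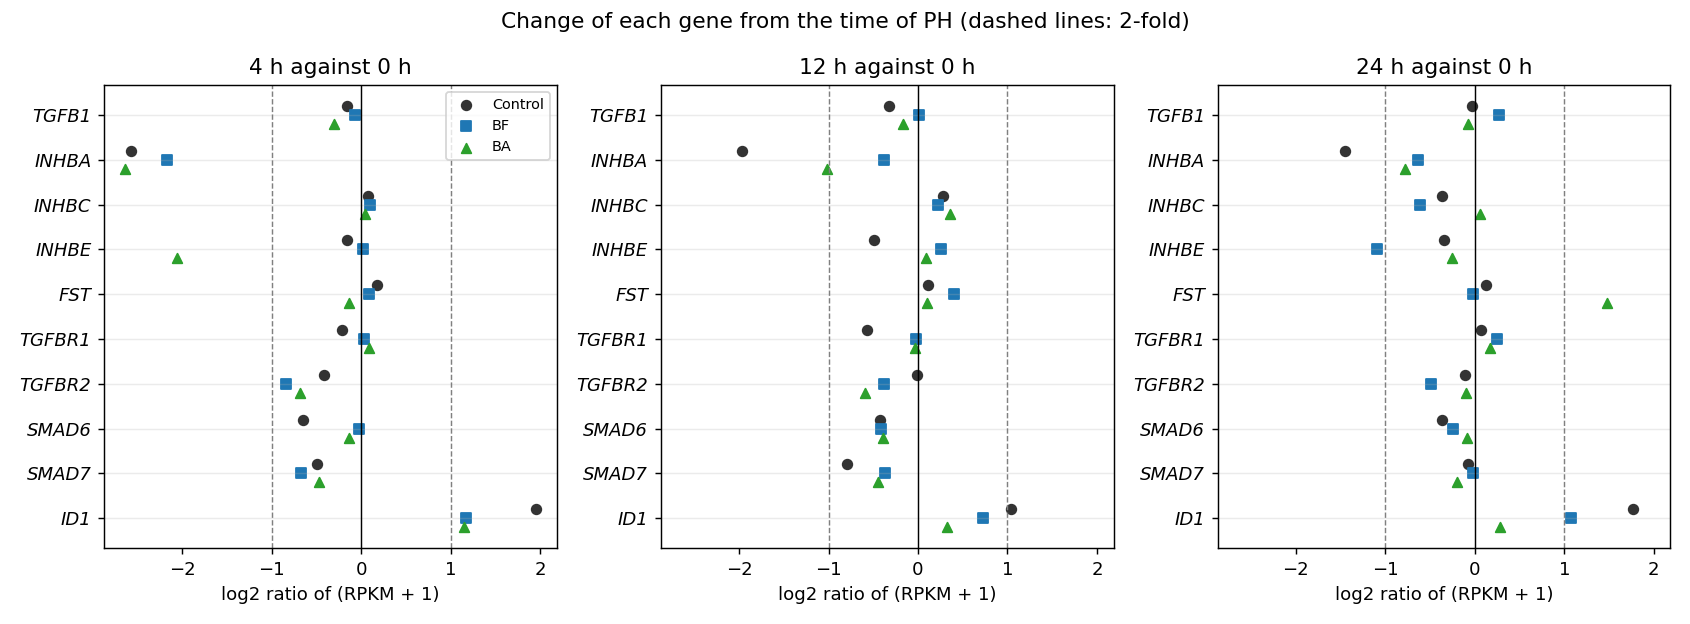
Log2 ratio of (RPKM + 1) to the 0 h column of the same group (x axis) for each gene (y axis) at 4, 12 and 24 h, in Control (black circles), BF (blue squares) and BA (green triangles), with dashed lines at 2-fold. INHBA lay left of 0 and ID1 right of 0 in all 9 ratios, and most other points lay between the dashed lines.

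Set against Control at the same time, the fistula columns differed in few of these genes. Before PH, at 0 h, none of the 10 was 2-fold apart in BF (3.89% of all genes were) or in BA (4.02%). INHBA was lower than the 8.37 RPKM of Control in both, with log2 ratios of -0.68 in BF and -0.37 in BA, and INHBE was higher in both, at 0.37 and 0.24. These directions held under every alternative for both genes. The 4 neutrophil markers summed to 3.11 RPKM in Control at 0 h, 22.8 RPKM in BF and 22.4 RPKM in BA. Only 2 of the 4 were 2-fold or more higher than in Control, in BF as in BA.

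At 4 h none of the 10 differed 2-fold in BF (4.35% of all genes) and 1, INHBE, was lower in BA (7.28%), with a log2 ratio of -1.65. At 12 h INHBE was higher in BF by 1.12 (3.52% of all genes changed), and was at 0.83 in BA, where no member reached 2-fold (1.71%). The BF value rests on the column with the pancreatic markers. It was the only change of a member between BF and Control, so that leaving out this column removes it by construction and does not check it. INHBA was at 0.90 in BF and 0.58 in BA at 12 h, and the BF value passed 2-fold with a pseudocount of 0.1 RPKM (1.26) or a floor of 1 RPKM (1.32). At 24 h no member differed in BF (2.08% of all genes), while in BA FST was higher by 1.53 and ID1 lower by a log2 ratio of -1.17 (2.05%).

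ID1 was below Control in both fistula columns at each time after PH. This sign held under every alternative. Its log2 ratios were -0.81 at 4 h, -0.33 at 12 h and -0.72 at 24 h in BF, and -0.49, -0.38 and -1.17 in BA. Only the last reached 2-fold, and it was -0.97 after rescaling on the median gene. Both sets of ratios share the Control columns, so that a high Control value enters each of them. At 0 h the ratios were -0.02 in BF, a sign that turned under other scalings, and 0.32 in BA.

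The fistula columns differed little from each other. Between BF and BA no member was 2-fold apart at 0 h (1.82% of all genes) or 12 h (1.92%). INHBE was higher in BF at 4 h, by 2.20 (4.72%), which again is the low value of the BA column. FST was lower in BF at 24 h, with a log2 ratio of -1.53 (1.86%). INHBC and INHBE were both lower in BF at 24 h without reaching 2-fold, at -0.78 and -0.71.

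Columns at the same time can also be paired over the 4 times, with time as a block. In limma's moderated test on log2(RPKM + 1), run over the 8459 expressed genes for 2 groups at a time and adjusted by Benjamini-Hochberg, none (0) of the 9 members tested passed an adjusted p of 0.05 in BF against Control, BA against Control or BF against BA. Of all genes 8, 3 and 3 passed (0.0946%, 0.0355% and 0.0355%). At an unadjusted p under 0.05 there was 1 member in each comparison, beside 22%, 19.7% and 7.59% of all genes. ID1 was lower in BF than in Control at 4 of 4 times, with a mean log2 difference of -0.47 (SE 0.15, limma adjusted p = 0.18). At 0 h its difference was only -0.016, a sign that turned under other scalings. The median of all expressed genes was also below 0 in BF against Control at each time, from -0.18 to -0.067. The test was not rerun on rescaled columns. In BA ID1 was lower at 3 of 4 times, at -0.43 (SE 0.23, limma adjusted p = 0.33). INHBC was higher in BA than in Control at 4 of 4 times, by 0.29 (SE 0.11, limma adjusted p = 0.24). TGFBR1 was lower in BF than in BA at 4 of 4 times, at -0.23 (SE 0.096, limma adjusted p = 0.65). For INHBE the mean difference between BF and BA was 0.48 with an SE of 0.42. These p-values measure how steady a difference was over the times and not the spread between rats, the comparisons share columns, and FST, under 1 RPKM on average, was not tested.

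**Figure D4:**
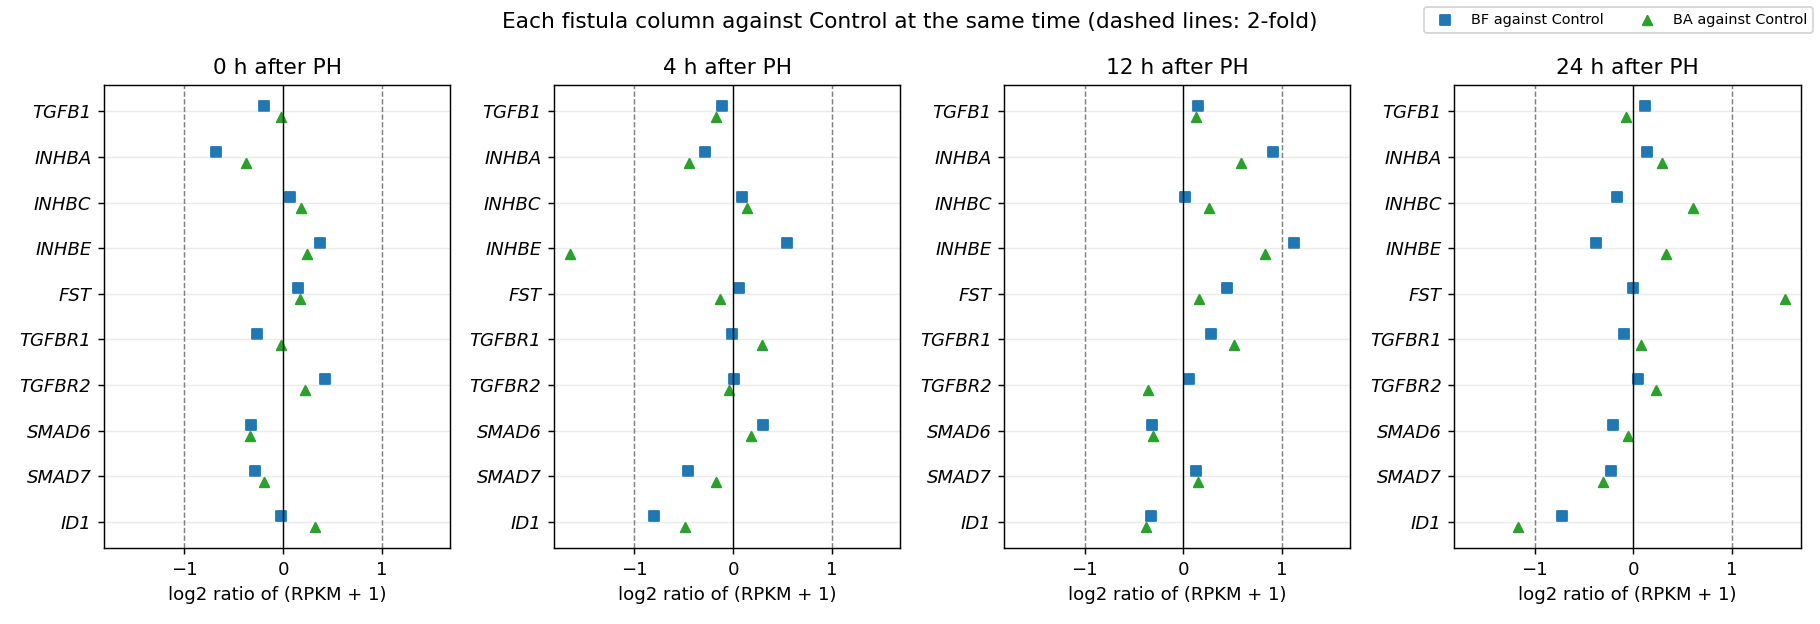
Log2 ratio of (RPKM + 1) of BF (blue squares) and BA (green triangles) to the Control column of the same time (x axes) for each gene (y axes) at 0, 4, 12 and 24 h after PH, with dashed lines at 2-fold. INHBE in BA at 4 h and in BF at 12 h, and FST and ID1 in BA at 24 h, lay past the dashed lines.

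Across the 12 columns the genes fell into loose pairs, given as a description, since the columns share groups, times and the Control and 0 h levels. Among 36 pairs of the 9 genes above 1 RPKM, Pearson's r of log2(RPKM + 1) was highest for TGFB1 with SMAD7 (0.81), TGFBR2 with INHBA (0.79) and INHBA with SMAD7 (0.74). It was lowest for INHBA with ID1 (-0.79), TGFBR2 with ID1 (-0.71) and TGFB1 with INHBC (-0.69). The neighbours INHBC and INHBE had 0.29 over all columns and 0.66 over the 11 columns without BA at 4 h. INHBA and INHBE went from 0.49 to 0.16 without that column.

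Among other genes above 1 RPKM, those most like INHBA over the 12 columns were XKR8 (r = 0.97) and ZNF467 (0.97). HYAL2 (0.96), PSTPIP1 (0.96) and RGD1305572 (0.94) were most like ID1, and AFF1 (0.97), LARGE (0.96) and PDE3B (0.95) most like SMAD7. For TGFBR2 they were SREBF2 (0.93), MASP2 (0.93) and TMPRSS2 (0.91), and for TGFB1 ZFP472 (0.94), PIK3C2A (0.93) and TXNDC15 (0.92). INHBE was followed most closely by SLC25A42 (0.89), TEK (0.89) and LIPE (0.88), and INHBC by RGD1308026 (0.85), RCAN2 (0.78) and NTF3 (0.78). SMAD6 came with FOXJ2 (0.89), SLC35F5 (0.85) and RGD1308290 (0.83), and TGFBR1 with SNX5 (0.84), GZF1 (0.83) and RGD1359508 (0.83). INHBA, SMAD7 and ID1 thus had closer companions than INHBC or TGFBR1.

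The rest of the pathway was read from a list of 110 further symbols, of which 86 were found and 51 averaged 1 RPKM or more: 6 ligands, 9 receptors and coreceptors, 7 antagonists and latency proteins, 12 SMADs and regulators and 17 targets. At 4 h 9 of the 51 rose and 4 fell in Control, where 4.01% of all genes rose and 5.19% fell. In BF 11 rose and 4 fell (5.13% and 6.92% of all genes). In BA it was 10 and 3 (4.61% and 13.2%). Targets made up 7 of 9, 9 of 11 and 7 of 10 of the rises. None of the 12 SMADs and regulators changed in any group at any time after PH. SMAD3, SKI and SKIL, which were on that list, were not found and could not be read.

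Most of the targets that rose at 4 h in all 3 groups are also known as immediate early or acute phase genes. HAMP, the iron hormone hepcidin and a BMP target, climbed from 1066 to 4782 RPKM (Control), from 726 to 2495 RPKM (BF) and from 806 to 3737 RPKM (BA), with log2 ratios of 2.16, 1.78 and 2.21. CTGF, a matrix protein that TGF-beta induces, rose by 3.03, 1.36 and 2.51, and JUNB, an AP-1 subunit, by 2.22, 2.21 and 1.44. The growth regulator MYC rose by 2.62, 1.23 and 1.53 and the cell cycle inhibitor CDKN1A by at least 1.57.

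Other genes of the BMP branch fell at 4 h in all 3 groups. HFE2 (hemojuvelin), a BMP coreceptor that drives hepcidin, dropped from 42.6 to 6.97 RPKM (Control), from 53.0 to 14.4 RPKM (BF) and from 59.0 to 4.25 RPKM (BA), with log2 ratios of -2.45, -1.81 and -3.52, while HAMP itself rose. ID4, a relative of ID1, fell by 2.21, 2.07 and 2.98 on the log2 scale, and was still 2-fold or more lower at 12 h (-1.59, -1.06 and -1.20). BAMBI, a receptor without a kinase that blocks the family's signals, fell by 1.18, 1.16 and 1.12. The ligand TGFB3 rose, from 1.19 to 5.04 RPKM in Control, 1.01 to 5.94 RPKM in BF and 0.98 to 6.38 RPKM in BA, while TGFB1 was at most 3.33 RPKM in any column.

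ID2 and ID3, the nearest relatives of ID1, did not follow it. At 4 h ID2 was at 64.3 RPKM in Control against 61.2 RPKM at 0 h, at 37.0 against 41.9 RPKM in BF, and at 115 against 69.3 RPKM in BA. ID3 was at 21.0 against 32.5 RPKM in Control, 19.7 against 20.5 RPKM in BF and 15.0 against 21.3 RPKM in BA. Neither reached 2-fold in any group at 4 h, so that within the ID family ID1 rose, ID4 fell, and ID2 and ID3 did neither. Both were named after their values were seen.

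At 12 h the counts were smaller in the fistula columns, and so was the share of all expressed genes that changed. That share was 13.9% in Control, 7.61% in BF and 7.06% in BA, so that the smaller counts are not read as particular to the pathway. In Control 6 of the 51 rose and 5 fell (3.96% and 9.94% of all genes), in BF 4 rose and 3 fell (2.46% and 5.15%), and in BA 0 rose and 2 fell (1.29% and 5.77%). At 24 h 4 rose and 1 fell in Control (8.29% and 3.03%), 3 and 0 in BF (9.27% and 1.88%), and 2 and 0 in BA (3.83% and 1.41%). CDKN1A rose in all groups at 24 h, by 3.10, 1.90 and 3.15, and so did TIMP1, an inhibitor of matrix proteases, by 2.99, 1.45 and 1.12.

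**Figure D5:**
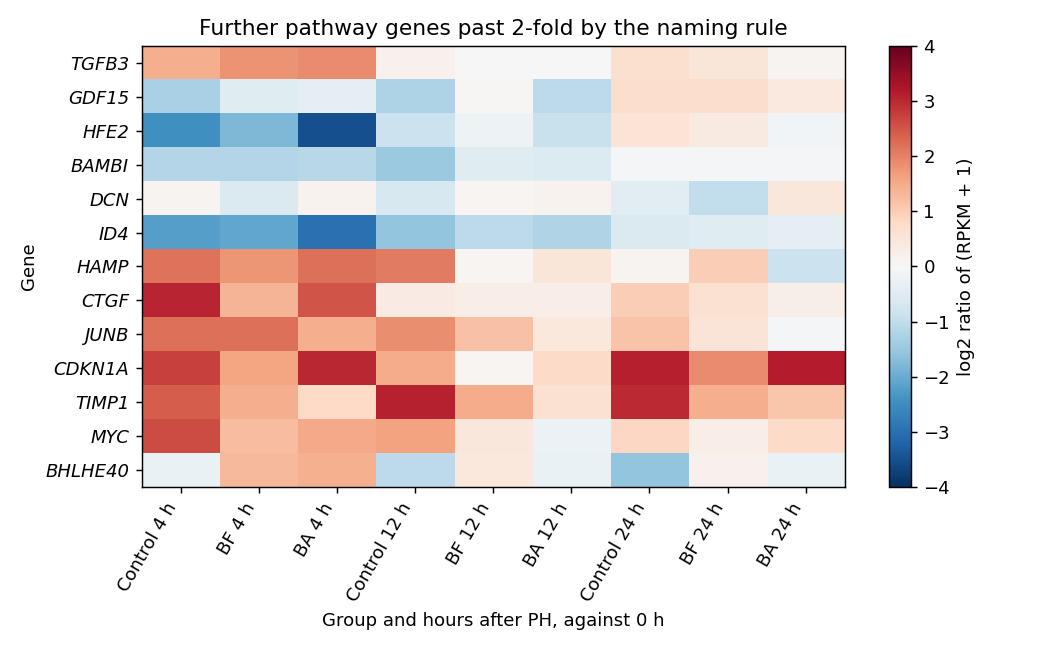
Log2 ratio of (RPKM + 1) to 0 h of the same group, as colour (red higher, blue lower), for 13 further pathway genes named by rule (rows) in Control, BF and BA at 4, 12 and 24 h (columns of the plot). HFE2, BAMBI and ID4 are blue at 4 h in every group, HAMP, CTGF and JUNB are red there, and HFE2 in BA at 4 h has the deepest colour, at -3.52.

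Few of these further genes differed from Control in both fistula columns at 1 time. At 0 h TIMP1 was at 5.17 RPKM in Control, 15.2 RPKM in BF and 22.6 RPKM in BA, with log2 ratios of 1.39 and 1.94, beside the neutrophil marker sums given above, and their part in it was not tested. BHLHE40, a transcriptional repressor, was lower at 0 h, at 58.7, 15.1 and 26.9 RPKM (-1.89 and -1.10). At 12 h HAMP was at 4535 RPKM in Control, 771 RPKM in BF and 1139 RPKM in BA (-2.56 and -1.99). Decorin (DCN), which binds TGF-beta in the matrix, was higher at 12 h, at 6.38, 20.3 and 16.8 RPKM (1.53 and 1.27).

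At 12 h the stellate cell and fibroblast markers, DCN among them, summed to 44.4 (Control), 66.9 (BF) and 55.6 RPKM (BA). DCN itself supplied 6.38, 20.3 and 16.8 RPKM of these sums, so that they are no separate measure beside it. Of the 9 markers found, 2 were 2-fold or more higher in BF than in Control, and 1 in BA. The part of these cells in the DCN difference was not tested. GDF15, a distant ligand of the family that responds to stress, was lower at 24 h, at 7.13 RPKM in Control, 2.70 RPKM in BF and 2.51 RPKM in BA (-1.14 and -1.21). It was lower before PH too, at 4.04, 1.28 and 1.67 RPKM at 0 h, and 2-fold or more so in BF only. The groups did not part in this way at 4 h (1.04, 0.63 and 1.10 RPKM) or 12 h (1.14, 1.33 and 0.30 RPKM). Of the 51 genes 4 differed 2-fold between BF and Control at 0 h (3.89% of all expressed genes) and 3 between BA and Control (4.02%). At 4 h it was 3 (4.35%) and 2 (7.28%), at 12 h 4 (3.52%) and 3 (1.71%), and at 24 h 2 (2.08%) and 3 (2.05%). Between BF and BA 8 of the 51 differed at 4 h (4.72% of all), among them CTGF and CDKN1A lower and HFE2 higher in BF, and 1, 0 and 3 at 0, 12 and 24 h (1.82%, 1.92% and 1.86%). The 8 rest on the BA column with the high albumin share.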

How the data were processed

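The authors sequenced whole liver RNA with 50-cycle reads for 3 groups of rats at 4 times after PH. They deposited 1 table of RPKM values with 2 decimals, each value the mean of 2 sequencing runs. Per the submitters' processing notes CASAVA, Bowtie 0.12.2 and the builds rn4 and mm8 were involved; the role of each build, the annotation, the treatment of reads shared by similar genes and the weighting of the runs are not given in the sources used here. RPKM divides by the total of a library, so that a very abundant gene lowers the values of the rest.

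Ratios were log2 of (RPKM + 1), which understates changes of weakly expressed genes. A ratio of 2-fold or more was counted as a change, beside the share of the 8459 genes averaging 1 RPKM or more that passed the same fold. The unit allows no count test, and with 1 averaged column per group and time no ratio at a single time was tested. Groups were also compared over the 4 times, chosen after seeing the data, with time as a block and limma's moderated test with a mean trend. Alternatives were a pseudocount of 0.1 RPKM, a floor of 1 RPKM without a pseudocount, columns rescaled on the median gene, on the total without the 10 most abundant genes or on the total without ALB, members above 1 RPKM only, and leaving out BF at 12 h or BA at 4 h. The alternatives involving ALB and BA at 4 h were chosen after seeing the data.

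The members and the pathway and marker lists were chosen with earlier results of these data known. Named beside the 10 members are listed pathway genes past 2-fold the same way in all 3 groups at 1 time or in both fistula groups against Control, the 3 genes most like each member by Pearson's r, CYP7A1, and ID2 and ID3. Some genes selected in this way are left out of the text and plots. RefSeq entries of GRCr8 were used to match older symbols and for promoter sequences, and for nothing else. FST and SMAD6 had no promoter entry. The computation was checked on simulated columns. Python 3.11.15, numpy 2.4.6, pandas 2.3.3, matplotlib 3.10.9, R 4.3.3 and limma 3.58.1 were used.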

Additional observations from a re-analysis of the deposited data

How the results depend on the processing

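Of the 21 member ratios of 2-fold or more, 17 were so under all 6 scalings and pseudocounts run, and none changed sign. The other 4 were ID1 in Control at 12 h, ID1 in BF at 24 h, ID1 in BA against Control at 24 h and INHBA in BA at 12 h. Of 210 member ratios, 8 crossed 2-fold with a pseudocount of 0.1 RPKM, 2 with a floor of 1 RPKM, 4 after rescaling on the median gene, 1 without the 10 most abundant genes and 1 without ALB. With a pseudocount of 0.1 RPKM the number of changes became 5 of 30 at 12 h, 3 of 40 for BF against Control and 5 of 40 for BA against Control, from 3, 1 and 3. With a floor of 1 RPKM it was 2 for BF against Control. Without BA at 4 h the changes at 4 h went from 7 of 30 to 4 of 20, and those of BF against BA from 2 of 40 to 1 of 30. Without BF at 12 h none of 30 (0) remained for BF against Control, since the only such change lay in that column. Leaving out a column takes away its own ratios, so that these lower counts do not check them. Leaving out FST, the member under 1 RPKM, left 1 of 36 for BF against BA. Rats could not be paired, since each group has 1 averaged column per time. Paired by time instead, with limma, none (0) of the 9 members tested passed an adjusted p of 0.05 in the 3 comparisons of groups, with all times or without any 1 of them, and between 0 and 33 of all genes did. The 33 were in BF against Control without the 12 h columns, against 8 with all times. Depth is unknown, and values under 1 RPKM, those of FST and of INHBA at 4 h, carry the least certain ratios.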

Other observations

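Among the further ligands above 1 RPKM, BMP10, a ligand of endothelial receptors, was at 2.07, 4.34, 4.06 and 4.11 RPKM in Control over the 4 times, at 2.41, 6.12, 3.78 and 4.91 RPKM in BF, and at 3.36, 3.74, 2.95 and 3.45 RPKM in BA. Its 4 h value reached 2-fold over 0 h in BF. BMP2, which drives hepcidin, was at 6.22, 4.90, 4.21 and 3.07 RPKM in Control, at 5.59, 4.86, 4.43 and 3.64 RPKM in BF, and at 4.62, 2.22, 3.69 and 3.77 RPKM in BA, with its lowest value in BA at 4 h. Control and BF thus had their highest BMP2 level at 0 h and their lowest at 24 h. BMP6, another hepcidin inducer, was at 1.49, 1.39, 0.92 and 1.19 RPKM in Control, at 1.73, 0.78, 0.62 and 1.13 RPKM in BF, and at 1.73, 0.39, 0.53 and 0.88 RPKM in BA. These genes were picked after their values were seen.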
